A study of Drosophila melanogaster with 2 samples.

Results

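Below the peaks that passed the irreproducible discovery rate (IDR) step, the Eip74EF ChIP-seq data held 10310 weaker peaks whose summit lay within 100 bp of a summit in each of the 2 replicate peak lists. They were taken from the deposited list of 30000 peaks called on the pooled replicates. Of these, 5004 formed the deposited IDR list, and 24996 did not. Among the 24996, 10310 (41.2%) had a summit in both replicates and make up the reproducible weaker peaks, called members in the plots. A further 8141 had one in replicate 3 alone, 4238 in replicate 1 alone and 2307 in neither, and these 14686 are called the remaining pooled peaks. The peaks were chosen by measured values, namely pooled signal and the distance of replicate summits, so both are given as a description and without a test.

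Chromatin immunoprecipitation and sequencing was done on whole embryos of Drosophila melanogaster, males and females together, at 8 to 16 h of age. The embryos came from 1 transgenic line that carried Eip74EF with enhanced green fluorescent protein at its C terminus, and an antibody against the tag was used. Chromatin was sonicated to 200 to 800 bp. The 2 samples, biological replicates 3 and 1, formed 1 group, and no other group was compared. The depth of each sample is unknown because only peak lists were analysed. Intervals given with shares are exact Clopper-Pearson 95% intervals, which cover counting error over peaks and not variation between embryos. All positions are on assembly dm6.

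Eip74EF is an ETS-domain transcription factor made in response to the steroid hormone ecdysone, which acts through the receptor pair of EcR and usp and times moulting, metamorphosis and parts of embryogenesis. ETS domains bind DNA around a GGAA core, and CCGGAAGT is a common form of the site. IDR ranks peaks in replicates and keeps those whose ranks hold up between them. Here the deposited IDR list held exactly the 5004 pooled peaks of highest signal, so each peak outside it was weaker in pooled signal. Of these 5004, 4630 had a summit within 100 bp in both replicates. In whole embryos, binding in a small share of the cells and weak binding in many of them cannot be told apart.

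The following sequences, each 101 bases centred on a pooled summit and read 5′ to 3′ on the + strand of dm6 (RefSeq reference genome), show what several of the weaker peaks held. The first 5 are the strongest with CCGGAAGT on either strand within 50 bp of the summit, and the capitals mark that string or its reverse complement. The string was found at 35 of 10310 weaker peaks (0.339%), at 0.759% of IDR peaks, at 0.368% of the remaining pooled peaks and at 0.0921% of windows of the same length 400 bp to either side of the weaker peaks. The peaks lie at the start of Mkp3, which encodes a phosphatase of MAP kinase, between genes near CG33110, in introns of CG31145 and of CG14253 (overlapped by CG46313), and at the start of CG15283.
Mkp3 (chr3L:19072750-19072850): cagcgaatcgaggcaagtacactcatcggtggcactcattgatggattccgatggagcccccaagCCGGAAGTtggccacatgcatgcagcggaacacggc
CG33110 (chr3R:22568784-22568884): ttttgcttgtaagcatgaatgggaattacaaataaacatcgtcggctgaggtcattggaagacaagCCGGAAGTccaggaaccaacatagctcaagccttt
CG31145 (chr3R:23667706-23667806): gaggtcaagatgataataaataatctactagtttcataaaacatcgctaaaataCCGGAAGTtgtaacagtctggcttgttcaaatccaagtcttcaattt
CG14253 (chr3R:26982557-26982657): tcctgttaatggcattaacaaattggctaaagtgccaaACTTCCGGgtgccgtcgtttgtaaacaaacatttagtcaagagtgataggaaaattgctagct
CG15283 (chr2L:14451298-14451398): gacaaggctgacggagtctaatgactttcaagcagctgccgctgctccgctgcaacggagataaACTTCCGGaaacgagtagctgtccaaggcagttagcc

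The next sequences hold 3 of the octamers that were more frequent at these summits than beside them in a scan of all octamers. They were picked after that scan from the strongest peaks with each string, which is in capitals on either strand. CACTTCCG holds the GGAA core on its other strand. TGTAAACA is the form of site that forkhead-domain factors are known to bind. No factor is named for TACACTGA, and the promL window that shows it also holds the GGAA core, in small letters. Stronger peaks with TACACTGA in an intron of ich (pooled signal 182.5) and with TGTAAACA in an intron of Pat1 (184.1) are not shown. The first pair lies in introns of rols, a scaffold gene of myoblast fusion, and of Sarm, a gene of axon degeneration. The next lies in an intron of promL, and the last peak lies 186 bp from the start of r, a gene of pyrimidine synthesis.
rols, CACTTCCG (chr3L:12035519-12035619): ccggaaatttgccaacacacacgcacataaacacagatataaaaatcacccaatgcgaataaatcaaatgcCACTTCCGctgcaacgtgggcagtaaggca
Sarm, CACTTCCG (chr3L:8078332-8078432): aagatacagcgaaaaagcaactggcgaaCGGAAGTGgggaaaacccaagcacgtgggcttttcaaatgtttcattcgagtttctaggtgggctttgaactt
promL, TACACTGA (chr3L:3125663-3125763): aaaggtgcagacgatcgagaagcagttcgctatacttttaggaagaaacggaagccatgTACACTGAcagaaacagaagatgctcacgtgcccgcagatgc
r, TGTAAACA (chrX:16655855-16655955): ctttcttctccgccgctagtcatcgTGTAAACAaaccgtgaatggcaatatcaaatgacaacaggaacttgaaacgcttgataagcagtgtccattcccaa

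The Mkp3 peak had a pooled signal of 175.3, with 103.2 in replicate 3 and 75.7 in replicate 1. The peak in CG31145 had 135.2 in replicate 3 and 20.7 in replicate 1, with summits 15 and 13 bp from the pooled one. The summit of the peak in CG14253 lay 200 bp from an IDR summit, and the other 4 summits lay 1190 bp or more from one. Signal here is the authors' own value for each peak, on a scale that the depth of a list can set, so a difference between the replicates' values may be one of scale.

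As a set, the weaker peaks ran in pooled signal up to 184.6, with a median of 98.5 and a minimum of 37.5. Their median was 59.6 in replicate 3 (range 25.1 to 385.0) and 37.1 in replicate 1 (range 18.6 to 189.6). Both highest values belong to 1 peak whose summit lay 231 bp from an IDR summit, and at the 8457 peaks over 1 kb from one the highest were 156.8 in replicate 3 and 113.5 in replicate 1. Replicate 3 had the higher value at 83.1% of them, by a median ratio of 1.56 (interquartile range 1.15 to 2.13), and the same ratio was 1.78 at the 4630 IDR peaks found in both replicates. Over the 10310 peaks, all regions of the same 2 libraries, replicate 3 and replicate 1 signals gave a Spearman rho of 0.393 and, as log2 values, a Pearson r of 0.383. The rule took a band of pooled signal, and within the 4 sets of falling signal rho was -0.400, -0.533, -0.463 and -0.143, while it was 0.736 at the IDR peaks found in both replicates. Summits of the 2 replicates were a median of 36 bp apart at the weaker peaks, and 24 bp apart at the IDR peaks. The deposited −log10 q-value had a median of 2.23 and reached 4.18 at the strongest, the value of each IDR peak found in both replicates. At the low end it was 0.509, with a median of 1.06 over the 2577 peaks of lowest signal.

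**Figure D1:**
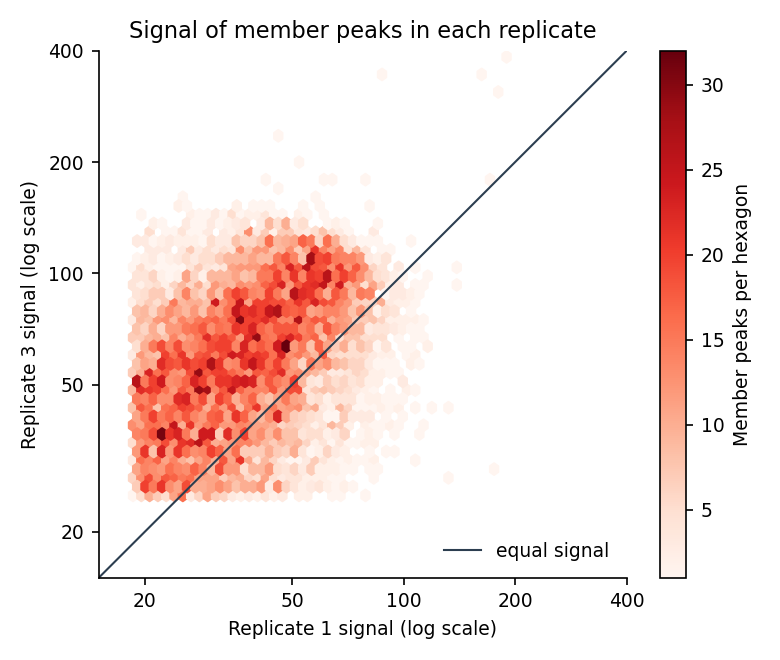
Signal of the 10310 weaker peaks in replicate 3 (vertical) and replicate 1 (horizontal), both on log scales, with colour for the number of peaks in each hexagon. Most lie above the line of equal signal, and both axes show a sharp lower edge where the replicate lists end, at 25.1 in replicate 3 and 18.6 in replicate 1.

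Few of the weaker peaks would rank as high in a single replicate as an IDR peak does in the pooled list. This follows in part from the rule, since the 5004 peaks of highest pooled signal were left out. In replicate 1, 494 (4.79%) had a summit among the 5004 strongest of that list, and in replicate 3, 362 (3.51%) did. Only 15 did so in both.

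Agreement between replicates fell steadily with pooled rank. Of the peaks ranked 5005 to 7500, 83.3% were reproducible (interval 81.8 to 84.7%). The share was 46.5% at ranks 15001 to 17500 and 2.88% at ranks 27501 to 30000. Replicate 1 lost summits sooner: at ranks 15001 to 17500 it had a summit near 61.1% of the pooled peaks, and replicate 3 had one near 81.3%. Each replicate list holds 30000 peaks, the same number as the pooled list, and the part of this limit in the fall was not tested.

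**Figure D2:**
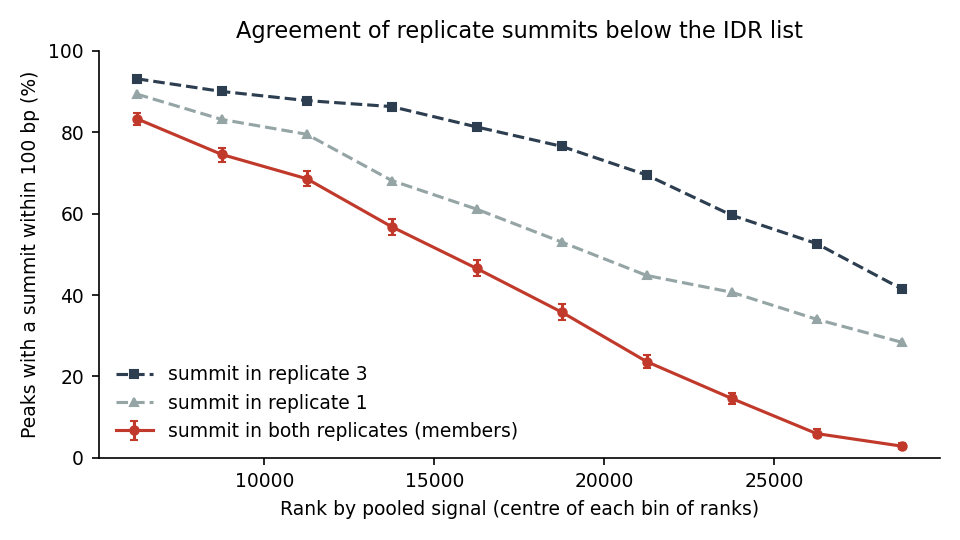
Share of pooled peaks outside the IDR list that had a summit within 100 bp in replicate 3, in replicate 1 and in both, by bins of pooled rank, with exact 95% intervals on the share in both. The share in both was 83.3% in the first bin and 2.88% in the last.

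The borders of the rule ran through a continuum of values. The weakest IDR peaks, near bark, CG5861 and epsilonCOP, had a signal of 184.6, 184.6 and 184.7. Just outside, the strongest reproducible peaks had 184.6 near RNaseX25, a secreted ribonuclease gene, 184.5 in an intron of CG31650 and 184.5 in an intron of spri. The first peak to miss the rule, 23 bp from the start of Mhcl, had a signal of 184.5 and a replicate 1 summit 105 bp away. Within the rule, 599 peaks had their farther replicate summit 91 to 100 bp away, and 519 missed it at 101 to 110 bp.

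The 10 strongest lay mostly in introns. After RNaseX25, CG31650 and spri came peaks at the start of Mrp5 and in introns of rols and of tkv, the gene of a Dpp receptor. The next were in introns of Mob2 and vsg, between genes near the mismatch repair gene Pms2, and in an intron of emc, whose protein inhibits bHLH factors. Their pooled signals spanned 184.2 to 184.6, so their order carries little. Replicate values were wider apart: Mrp5 had 146.3 in replicate 3 and 33.7 in replicate 1, and vsg had 95.8 in replicate 3 and 94.7 in replicate 1. Beyond the peaks in spri, rols and tkv, the strongest over 2 kb from a transcription start site (TSS) lay in introns of osp, 203 bp from an IDR summit, and of shep, a gene of an RNA-binding protein.

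A distinct minority sat on the shoulders of IDR peaks. No weaker peak had its summit nearer than 199 bp to an IDR summit, 908 (8.81%, interval 8.27 to 9.37%) lay 199 to 250 bp away, and only 50 lay more than 250 and up to 500 bp away. The distance of the 908 had a median of 203 bp and an interquartile range of 201 to 209 bp. The remaining pooled peaks had the same heap, with 927 (6.31%) within 250 bp. Each of the 908 had an IDR peak of its own, so that 18.1% of all IDR peaks had such a neighbour, and their signal was a median of 36.1% of that neighbour's. For 510 of them (56.2%) the summit fell inside the interval of an IDR peak. In 94 of the 908 (10.4%) the nearest summit in a replicate was also the nearest to the IDR neighbour. Both peaks were then given the same value in that replicate. The smallest gap between any 2 summits was 199 bp in the pooled list and in each replicate list. Whether the heap comes from the way summits were called was not tested. At 8457 of the weaker peaks, no IDR summit lay within 1 kb.

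**Figure D3:**
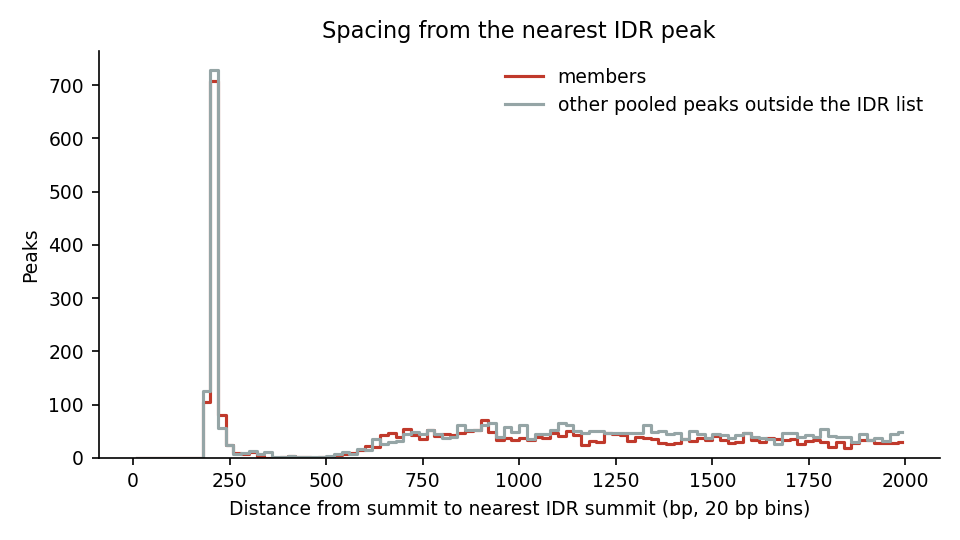
Number of weaker peaks (members) and of remaining pooled peaks by distance to the nearest IDR summit, in 20 bp bins up to 2000 bp. Both lines are at 0 below 180 bp, peak in the bin from 200 to 220 bp and are near 0 from 250 to 500 bp.

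Against their share of the genome, the summits favoured promoters and introns and were scarce in coding sequence. Promoters, here 500 bp to either side of a protein-coding TSS, held 2742 of the 10310 weaker peaks (26.6%, interval 25.7 to 27.5%), 41.2% of IDR peaks and 20.9% of the remaining pooled peaks, where such windows cover 11.5% of the genome. Taken at the summits of each replicate the share was 26.6% in replicate 3 and 26.5% in replicate 1. Introns held 4986 of the weaker peaks (48.4%), 41.2% of IDR peaks, 50.7% of the remaining pooled peaks and 39.4% of the genome. Intergenic sequence held 2066 of the 10310 weaker peaks, 14.0% of IDR peaks, 22.2% of the remaining pooled peaks and 28.7% of the genome. Coding exons held 92 (0.892%, interval 0.720 to 1.09%), against 0.280% of IDR peaks, 1.57% of the remaining pooled peaks and 13.3% of the genome. The strongest of the 92 lay in Sdb, CG1607 and scrib, the last a gene of epithelial polarity, and the one in Sdb was 200 bp from an IDR summit. In 3′ UTRs lay 1.78% of the weaker peaks, 0.979% of IDR peaks, 2.25% of the remaining pooled peaks and 5.17% of the genome.

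Weaker peaks also lay farther from genes' starts. The median distance to a protein-coding TSS was 2110.5 bp at the weaker peaks, 938 bp at IDR peaks and 2765.5 bp at the remaining pooled peaks. At promoters, 57.0% of weaker summits were upstream of the TSS, against 67.9% of IDR summits and 53.8% of the remaining pooled summits. The median position was 30 bp upstream at the weaker peaks and 103 bp upstream at IDR peaks. Among the reproducible peaks, those at promoters had a median pooled signal of 108.5, close to the 108.2 of the 142 in exons outside protein-coding genes, against 95.8 in introns, 92.8 between genes and 78.8 in coding exons. The promoter share was 34.4% among the 2578 of highest signal and 19.6% among the 2577 of lowest.

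Within bins of pooled rank, the order of the groups differed between the upper and lower ranks. The weaker peaks as a whole had a higher promoter share than the remaining pooled peaks, but at ranks 5005 to 7500 it was 35.5% (interval 33.5 to 37.6%) for the reproducible peaks and 46.8% (41.9 to 51.7%) for the others. At ranks 7501 to 10000 it was 29.4% for the reproducible peaks and 40.3% for the others, and the intervals were separate up to rank 15000. From rank 15001 on the intervals overlapped in every bin. From rank 20001 on the reproducible peaks had the higher share in every bin, within these overlapping intervals. In the last bin it was 23.6% (14.4 to 35.1%) for the 72 reproducible peaks and 14.6% (13.2 to 16.0%) for the others. With a summit distance of 200 bp in place of 100, the first bin gave 36.1% for the reproducible peaks and 60.4% for the others, and the intervals at ranks 12501 to 15000 overlapped. At that distance the reproducible peaks were higher, with separate intervals, in the 3 bins from rank 22501 on, at 19.1%, 22.5% and 26.5%, against 14.3%, 14.7% and 13.3% for the others. Of the 417 other peaks in the first bin at 100 bp, 316 (75.8%) had a summit within 250 bp in both replicates.

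**Figure D4:**
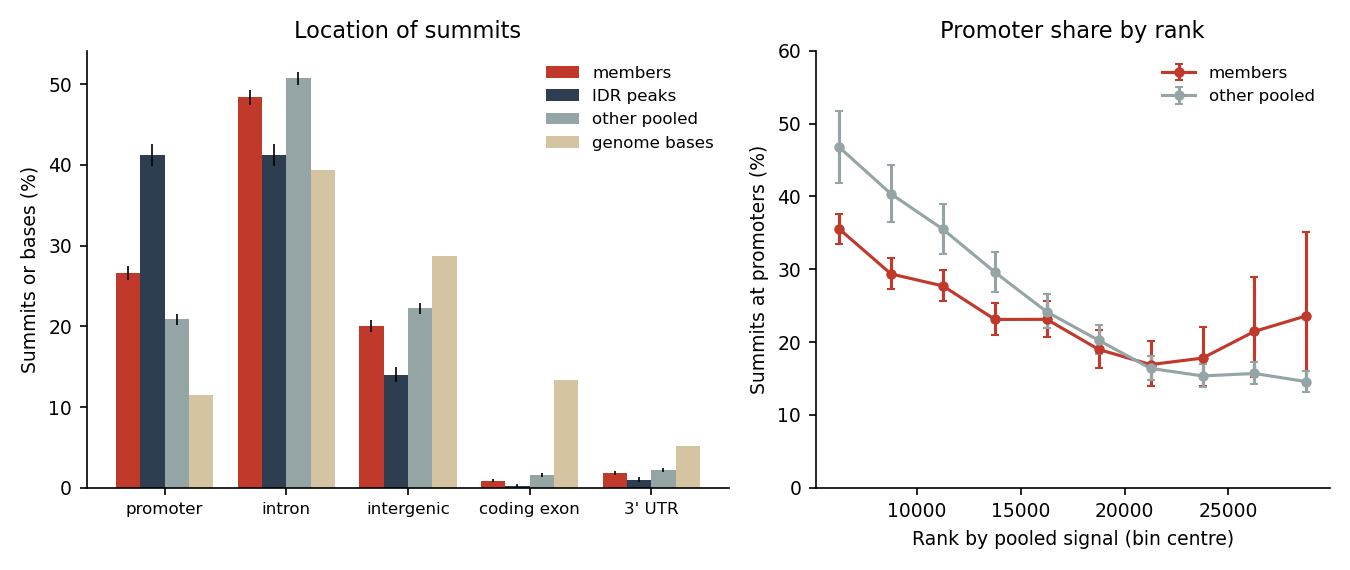
Left, share of summits in 5 location classes for the weaker peaks (members), IDR peaks and remaining pooled peaks, with exact 95% intervals, beside the share of genome bases. Right, promoter share by pooled rank, where the weaker peaks lie below the remaining pooled peaks in each bin up to rank 15000, at 35.5% against 46.8% in the first.

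Sequence was not used to choose the peaks and could be tested. In windows of 101 bp at the summit, CGGAAG, the ETS core with its usual flanking letters, was found on either strand at 453 of the 10310 weaker peaks (4.39%, interval 4.01 to 4.81%), against 2.24% of flanking windows 400 bp away, a ratio of 1.97. An exact McNemar test against each flank, two-sided, with the larger p adjusted by Benjamini-Hochberg over all 2080 hexamers, gave an adjusted p of 3.74e-14. Among the 492 hexamers with the same number of G and C letters, its ratio was the highest. This test treats regions as independent and describes these libraries. At IDR peaks the share was 7.31%, 3.17 times the flanks, and at the remaining pooled peaks 3.41%, 1.51 times the flanks, and the 3 intervals did not overlap. Within bins of pooled rank, the intervals of the weaker and the remaining pooled peaks overlapped in every bin, with 4.67% at the weaker peaks and 3.84% at the others at ranks 5005 to 7500, and 5.26% (4.29 to 6.37%) at the weaker peaks and 4.71% (3.20 to 6.66%) at the others at ranks 7501 to 10000. The weaker peaks had the higher share except at ranks 20001 to 22500, with 2.88% at the weaker peaks and 3.40% at the others, and at ranks 27501 to 30000, with 0 of 72 (interval up to 4.99%) at the weaker peaks and 4.04% at the others. Around the summits of each replicate it was 4.25% in replicate 3 and 4.18% in replicate 1.

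Most of the weaker peaks did not hold the ETS hexamer. Subsets of them were not tested against each other. Outside promoters the weaker peaks had it at 4.51% of summits and 2.08% of flanks, and at promoters at 4.08% of summits and 2.66% of flanks. With the peaks cut by falling signal into 4 sets of 2577 or 2578, it was found at 4.81%, 4.69%, 4.58% and 3.49% of summits. At the 908 peaks within 250 bp of an IDR summit the share was 3.19% (interval 2.15 to 4.55%) at summits and 3.19% at flanks. At the 8457 peaks over 1 kb from an IDR summit it was 4.55% at summits (interval 4.12 to 5.02%) and 2.21% at flanks. Sites gathered within 50 bp of the summit, at 24.6 and 23.4 sites per 1000 weaker peaks in the 50 bp on either side, against 39.8 and 36.6 at IDR peaks, and at 11.6 to 13.1 in the outermost bins of the weaker peaks.

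**Figure D5:**
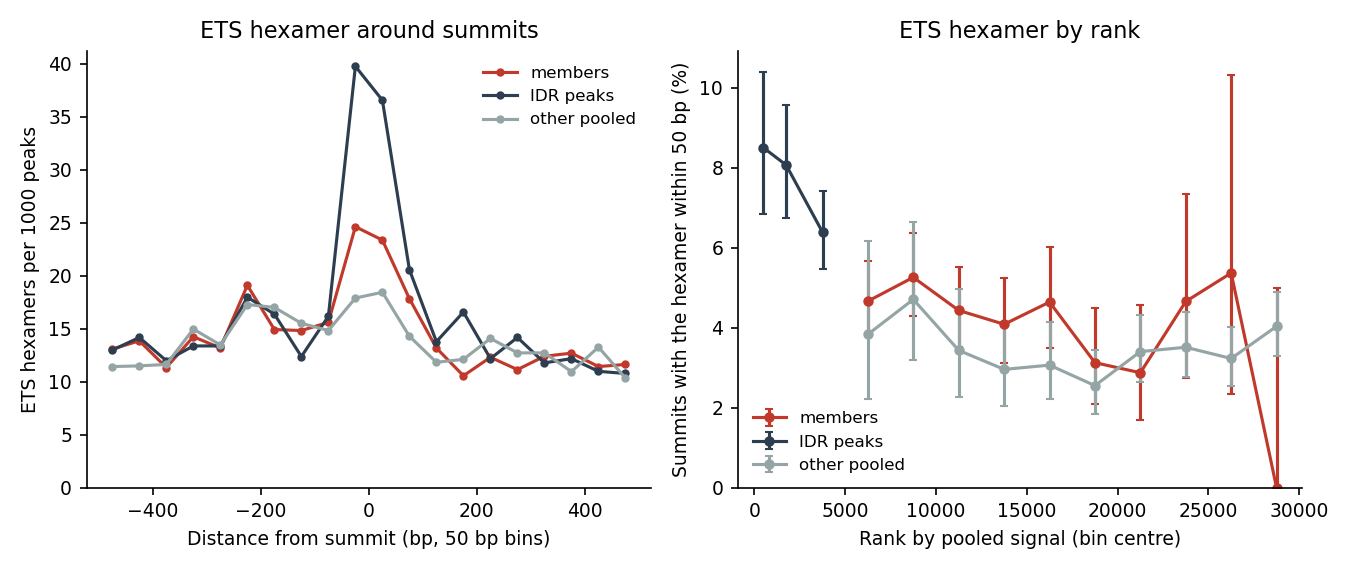
Left, ETS hexamers on either strand per 1000 peaks by distance from the summit, in 50 bp bins. Right, share of summits with the hexamer within 50 bp by pooled rank, with exact 95% intervals: 8.50% at the 1000 strongest IDR peaks, 4.67% at the weaker peaks of ranks 5005 to 7500, and 0 of 72 in the last bin of weaker peaks.

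Of all hexamers, 117 (5.62%) were more frequent and 156 (7.5%) less frequent at the weaker summits at an adjusted p under 0.05. Scanned alone, the 2578 peaks of highest signal gave 55 higher and 44 lower, and the next 2578 gave 3 and 16. The lower sets of 2577 gave at most 1 of each, and the 2742 peaks at promoters gave 6 higher and 28 lower. Counts in these smaller sets also reflect the power of the test, so they do not show where the differences lie. For CGGAAG the ratio of summits to flanks was 2.12, 2.02, 2.23 and 1.53 over the 4 sets of falling signal. The summits were richer in A and T, with 39.9% G and C against 41.6% and 41.3% in the flanks (IDR summits had 35.9%), so strings were also read by composition. Of the 16 higher hexamers with at least 3 G or C letters, 6 held GGAA or TTCC. After CGGAAG, the highest ratios among these were 1.56 for CCGGAA and 1.40 for ACTTCC. A second group shared CACTG or CAGTG. The hexamer ACACTG was at 5.68% of summits and 3.62% of flanks (exact McNemar, adjusted p = 4.87e-09), ACAGTG at 5.40% and 3.64% (exact McNemar, adjusted p = 2.12e-06) and CACTGA at 5.69% and 4.15% (exact McNemar, adjusted p = 3.54e-05). Of the 156 lower hexamers, 142 had at least 3 G or C letters, and the part of base composition in this was not tested. Among them, strings with AGGA stood lowest. GCAGGA was at 1.95% of summits and 4.21% of flanks (exact McNemar, adjusted p = 3.97e-17), and CAGGAC at 0.844% and 2.01%. Among strings of other factors, TAATTA of homeodomains was at 7.01% of summits and 6.78% of flanks, and CAGCTG of bHLH factors at 4.64% and 4.51% (exact McNemar, adjusted p = 1 for both). The total for CAGCTG joined opposite values, with 7.04% of summits and 4.87% of flanks at promoters and 3.77% of summits and 4.37% of flanks elsewhere. GGTCACACT, which holds part of a known core promoter element, was at 43 weaker summits (0.417%) and 0.145% of flanks, 36 of them at promoters, and as a string of 9 letters it was not in either scan.

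Octamers gave a shorter list, with 8 of 32896 (0.0243%) higher and 5 (0.0152%) lower by the same test. Both with the highest ratios were ETS strings that overlap in ACTTCCG. CACTTCCG was at 0.834% of weaker summits and 0.213% of their flanks (exact McNemar, adjusted p = 0.00241), at 1.22% of IDR summits and at 0.490% of the remaining pooled summits. ACTTCCGC was at 0.824% of weaker summits and 0.223% of flanks (exact McNemar, adjusted p = 0.00241). The full consensus CCGGAAGT, 3.68 times as frequent as in flanks over 35 peaks, did not pass (exact McNemar, adjusted p = 0.79). CACTGAGA was at 0.708% of summits and 0.233% of flanks (exact McNemar, adjusted p = 0.00702), ATACACTG at 0.553% and 0.160% (exact McNemar, adjusted p = 0.0265) and TACACTGA at 0.718% and 0.276% (exact McNemar, adjusted p = 0.0284), and these 3 overlap one another in CACTG. TACACTGA was at 0.799% of IDR summits and 0.415% of the remaining pooled summits. TGTAAACA was at 1.38% of weaker summits and 0.698% of flanks (exact McNemar, adjusted p = 0.0477), at 1.54% of IDR summits and at 1.08% of the remaining pooled summits. The other higher strings, AAAATATA and AATATTTA, hold A and T alone. TATCGATA, the string of the factor DREF, was at 0.660% of summits and 0.276% of flanks and did not pass (exact McNemar, adjusted p = 0.32). Most of its summits lay at promoters, where it was at 55 summits (2.01%) and 0.693% of flanks. Elsewhere it was at 13 summits (0.172%) and 0.126% of flanks, and this split was not tested.

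Counted over genes, the weaker peaks reached promoters with and without an IDR peak. Of 13945 protein-coding genes, 2608 (18.7%) had a reproducible weaker summit within 500 bp of a TSS. Of the 11770 genes with no IDR summit there, 1891 (16.1%) had one. Of the 2175 genes with an IDR summit there, 717 also had a weaker one, which is a larger share. At promoters, 377 weaker summits lay within 250 bp of an IDR summit, and the share of these genes without such summits was not counted. With both kinds of peak, 4066 genes (29.2%) had a summit at a TSS, against 2175 (15.6%) with IDR peaks alone. Over gene bodies, counted with 2 kb before the start, 4291 genes (30.8%) had a weaker summit. Of the 10499 with no IDR summit there, 2153 (20.5%) had a weaker one. A summit near a TSS shared by neighbouring genes counts for each of them, and long genes collect more summits, so list counts below stand beside these shares with no test.

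Of the 28 ecdysone response genes listed, 24 had a weaker summit in the gene or its upstream region, against 30.8% of all genes, and 23 had an IDR summit, against 24.7% of all genes. Gene length was not matched in these shares. The exceptions with no weaker summit were Hr78, Eip93F, ImpE2 and ImpE3. EcR, the ecdysone receptor gene, had 24 weaker summits and 6 IDR summits, or 2.88 weaker summits per 10 kb. The median over the 307 genes of at least 50 kb was 0.526 per 10 kb, and 96.4% of those genes had fewer than EcR. Its strongest weaker peak, in an intron at 2R 6120508, had a pooled signal of 175.6, with 121.1 in replicate 3 and 61.8 in replicate 1.

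Among the early targets of the hormone, Eip75B, a nuclear receptor gene, had 20 weaker and 20 IDR summits. Its strongest weaker peak had 136.1 in replicate 3 and 45.9 in replicate 1, 4190 bp from an IDR summit. Eip63E, a cyclin-dependent kinase gene, had 19 weaker and 6 IDR summits. Eip78C had 7 weaker and 3 IDR summits, Eip63F-1 had 3 and 1, and br, the Broad zinc-finger gene, had 2 and 1. The nuclear receptor genes that follow in the cascade had 17 weaker and 12 IDR summits (Hr4), 13 and 15 (ftz-f1), 8 and 7 (Hr3) and 5 and 3 (Hr39). The coactivator gene tai had 15 weaker and 9 IDR summits. The genes vri, chinmo, E23, Blimp-1, Ldh and ImpE1 had 2 to 8 weaker summits each. ImpE1 had no IDR summit and its best weaker peak was low, with 46.9 in replicate 3 and 33.1 in replicate 1.

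At promoters, 6 of the 11 ecdysone response genes without an IDR summit at a TSS had a weaker one (54.5%, against 16.1% of all such genes). These were usp, Hr38, MsrA, crol, Kr-h1 and ImpL2. The usp peak, 279 bp from the TSS of the receptor's partner gene, had 56.4 in replicate 3 and 31.9 in replicate 1, and usp shares its region with Actn. The Hr38 peak, 46 bp from the TSS, was the strongest of the 6, with 115.4 in replicate 3 and 34.5 in replicate 1. The MsrA peak had 76.2 in replicate 3 and 36.1 in replicate 1, and the crol peak had 61.2 in replicate 3 and 54.0 in replicate 1. The weakest, at Kr-h1, a gene of the juvenile hormone response, had 36.2 in replicate 3 and 24.2 in replicate 1. ImpL2, which encodes a secreted insulin-binding protein, had a peak with 37.1 in replicate 3 and 56.2 in replicate 1.

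Eip74EF itself had fewer weaker peaks than IDR peaks. At 1.44 weaker summits per 10 kb, it still lay above 75.9% of the 307 genes of at least 50 kb. Within 20 kb of the gene (3L 17558672 to 17619325, minus strand) lay 13 weaker peaks, 33 IDR peaks and 13 remaining pooled peaks. Inside the gene were 9 weaker and 27 IDR summits. None of the 13 weaker summits lay at a promoter, and 11 lay in introns. The strongest, 15177 bp from the nearest TSS and 237 bp from an IDR summit, had 139.1 in replicate 3 and 27.1 in replicate 1. The next, at 3L 17578014, lay 1423 bp from an IDR summit. Of the 13, 5 lay within 250 bp of an IDR summit.

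Other ETS genes were reached too. The pnt gene, the ETS activator downstream of MAP kinase, had 16 weaker and 6 IDR summits, and its repressor counterpart aop had 6 weaker and 14 IDR summits. Ets98B had no IDR summit in the gene and a weaker peak 2 bp from a TSS, with 53.5 in replicate 3 and 73.9 in replicate 1. Ets96B had a weaker promoter summit 210 bp from an IDR summit. Ets65A and Ets97D had no summit of either kind, and Ets21C had an IDR summit alone.

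The signalling and tissue lists were short, and their counts stand beside 16.1% of all genes without an IDR promoter summit. In the Dpp pathway 5 of 11 genes without an IDR promoter summit had a weaker one, among them the genes of the secreted antagonist sog (108.6 in replicate 3, 21.3 in replicate 1), the repressor brk (73.3 in replicate 3, 74.9 in replicate 1) and the ligand gbb. In the EGFR and MAPK pathway it was 4 of 14, with rho, which releases EGFR ligands, at 84.6 in replicate 3 and 86.5 in replicate 1, beside cnk and Raf. The Wingless pathway had 2 of 8 (Notum and dsh), and insulin and TOR signalling 2 of 13 (Rheb and Ilp6). The Notch pathway had 0 of 12, although 12 of its 22 genes held a weaker summit in the gene or upstream. Over all genes that share was 30.8%, with gene length not matched.

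The epidermal barrier list had 4 of 7, and all 9 of its genes held a weaker summit in the gene or upstream. Over all genes that share was 30.8%, with gene length not matched. Ddc and ple, which encode enzymes of dopamine synthesis used in cuticle hardening, and the chitin synthase gene kkv had no IDR summit in the gene or upstream. Their weaker promoter peaks had 87.3 (Ddc), 64.3 (ple) and 80.9 (kkv) in replicate 3 and 64.1 (Ddc), 38.5 (ple) and 50.8 (kkv) in replicate 1. Muscle sarcomere genes had 4 of 14, led by Actn and Tm2, and myoblast fusion genes 3 of 7, led by rst and twi. The tracheal gene salm had a weaker promoter peak 114193 bp from any IDR summit, with 93.1 in replicate 3 and 57.4 in replicate 1. Neuronal genes had 0 of 11 and hemocyte genes 0 of 7.

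Housekeeping lists had more members and stood on either side of the share of all genes. Mitochondrial ribosomal protein genes had 15 of 56 (26.8%), led by mRpS26 with 102.9 in replicate 3 and 67.6 in replicate 1. Rab GTPase genes, which direct vesicle traffic, had 8 of 27 (29.6%), and vacuolar ATPase genes 7 of 30 (23.3%), led by Vha13. Cytosolic ribosomal protein genes had 5 of 27 (18.5%), since 66 of 93 already had an IDR summit there. Respiratory chain genes had 11 of 80 (13.8%), led by ATPsynC, translation factor genes 5 of 38 (13.2%) and proteasome genes 5 of 43 (11.6%). Cell cycle genes had 5 of 13, among them fzr, CycA and fzy. The CycA peak had 62.0 in replicate 3 and 75.7 in replicate 1.

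The remaining lists were small. Heat shock genes had 3 of 7, where CG4456 and Hsp67Bc share 1 summit, autophagy genes 3 of 12, glia genes 1 of 5 and gut and salivary gland genes 2 of 8. Circadian clock genes had 1 of 4, which was per, ecdysone synthesis and uptake genes 2 of 14 and Hox genes and cofactors 1 of 10, which was hth. Programmed cell death genes had 1 of 8, and glycolysis genes and other nuclear receptors had none of 4 and none of 9.

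By raw count, the genes with the most weaker peaks were long ones. The founder-cell adhesion gene kirre had 37 weaker and 16 IDR summits over 394.1 kb, and Glut4EF had 36 and 16, nearly all of which also lie in the overlapping CG46467. The rdx gene, whose protein targets the Hedgehog effector Ci for degradation, had 31 and 12, and at 4.63 weaker summits per 10 kb it was the densest of the 307 long genes. The Wingless receptor gene fz2 had 29 weaker summits and 3 IDR summits, and klar, a gene of nuclear migration, 27 and 4. The strongest of those in fz2, in an intron, had 120.2 in replicate 3 and 55.0 in replicate 1 and lay 38618 bp from any IDR summit. In the clock gene Pdp1 there were 23 weaker and 7 IDR summits, or 3.97 weaker summits per 10 kb.

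The densest stretch of 20 kb lay in introns of rdx (3R 13996418 to 14016417), with 21 weaker and 2 IDR summits. The weaker ones spanned 25.5 to 129.2 in replicate 3 and 22.3 to 61.1 in replicate 1, were a median of 666 bp apart, and none lay within 250 bp of an IDR summit. The second, between genes around CG6163 (3L 11358818 to 11378817), had 15 weaker and 2 IDR summits. The third held 14 and 3 (2R 16824114 to 16844113), over CG34459, CG34460 and Ugt37C1. Of 6697 fixed windows of 20 kb along the genome, 51.0% had no weaker summit.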

How the data were processed

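The deposited lists for replicates 3 and 1, for the pooled replicates and for the IDR step were used, all on dm6 per the labels. For each peak, the authors deposited its interval, a signal, the offset of its summit and a q-value as −log10. Which aligner, peak caller and IDR threshold were used is not given in the sources used here. Pooled peaks were sorted by signal, those in the IDR list were dropped, and those with a summit within 100 bp in both replicate lists were kept. A peak's replicate signal is that of the nearest replicate summit. Classes (first match: promoter, UTRs, coding exon, intron, other exon, intergenic) used Ensembl release 115 (BDGP6.54), the same assembly as dm6, and sequence came from the RefSeq genome. Genes were counted within 500 bp of a TSS, or over the gene body with 2 kb before it. Strings were scanned with exact McNemar tests against both flanks. The scan was checked on simulated windows. Python 3.11.15, numpy 2.4.6, pandas 2.3.3 and scipy 1.17.1 were used. Peaks, lists (31 lists, 751 genes) and rules were chosen with earlier results of these data known. Named by rule were peaks at each border, the 10 strongest, the 5 strongest over 2 kb from a TSS, the 5 strongest with the ETS consensus, the 3 densest windows, Eip74EF, ecdysone response genes and up to 3 promoter genes of each other list. Other genes (those of long regions, coding exons, octamer sequences and the ETS list) were named after their values were seen. Alternatives varied the distance, replicates, signal, windows and IDR neighbours. Replicates share a line, and nothing shows whether they differ beyond sampling. No tests between samples were possible.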

Additional observations from a re-analysis of the deposited data

How the results depend on the processing

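Over 9 results and 74 alternative values, 53 stayed within the set limits and 21 moved. None was labelled as reversed, but most of the 9 results are counts or shares that have no direction to reverse. The limits were wide: 14548 weaker peaks, found with a match in replicate 1 alone required, counted as within them, where the main rule gave 10310. With a summit distance of 50 bp there were 6702 weaker peaks, 1258 genes gained at promoters, and 64 hexamers higher and 69 lower. The 5155 weaker peaks of highest signal had 31.8% at promoters and 46.0% in introns. The promoter share was 24.7% without peaks within 1 kb of an IDR summit, 25.2% without those within 250 bp (an alternative chosen after seeing the data), 19.6% with a promoter window of 250 bp and 35.2% with one of 1000 bp. Summit windows of 25 bp to either side gave CGGAAG at 2.25% of weaker summits, 51 hexamers higher and 45 lower. Windows of 100 bp gave 7.52%, 179 and 255. Requiring a match in only one replicate gave 14548 to 18451 weaker peaks, 22.9 to 26.7% at promoters, 47.9 to 50.4% in introns and CGGAAG at 3.93 to 4.10% of summits. The ratio of CGGAAG at summits to flanks ranged from 1.56 to 2.23 over the alternatives. No paired analysis was possible because both samples form 1 group. Depth is unknown, and the replicate lists end at 30000 peaks, so a summit absent from a list may lie below its end.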

Other observations

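The weaker peaks were spread over the chromosome arms much as the IDR peaks were. They numbered 71.0 to 85.9 per Mb of called sequence on 2L, 2R, 3L, 3R and X, and 24.8 on the small chromosome 4, where 33 lay beside 16 IDR peaks. Per IDR peak there were 1.94 to 2.30 weaker peaks on every arm, with the highest value on X. Annotated transposable elements, which cover 5.93% of these arms, held 17 of the 10310 weaker summits (0.165%), 0.120% of IDR summits and 0.300% of the remaining pooled summits. Whether reads in repeats were left out before peak calling was not tested.

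Octamers were also read by location, where 7568 of the 10310 weaker summits lay outside promoters. ATACACTG was at 51 weaker summits outside promoters (0.674%, interval 0.502 to 0.885%) and at 6 at promoters (0.219%, interval 0.0803 to 0.476%). The intervals overlapped for CACTGAGA, at 0.832% outside promoters and 0.365% at promoters, for TACACTGA, at 0.819% and 0.438%, and for the ETS octamer CACTTCCG, at 0.938% and 0.547%. TGTAAACA was at 1.39% of weaker summits outside promoters and 1.35% at promoters. None of the weaker windows with these strings lay in an annotated transposable element, and every window with them differed from the others in sequence. These strings were singled out after their values were seen.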
